A study of Mus musculus with 2 samples.

Results

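Skeletal muscle contractile genes were followed in RNA sequencing libraries of mouse dorsal root ganglia, the clusters of sensory neuron cell bodies beside the spinal cord. The group was fixed by name as 37 genes of the sarcomere, of calcium handling, of muscle energy supply and of muscle atrophy, and all 37 had a row among the 23238 gene symbols of the deposited tables. Wild-type mice were treated for 5 days with acetone, ether and water (AEW), which dries the skin and serves as an itch model, or with water only as controls. Ganglia were collected on day 6. RNA of 6 mice per group was pooled and sequenced as 1 library per group, so differences have no replicate check, and an effect of treatment and a difference between the pools cannot be told apart. The sources used here give neither the age nor the sex of the mice, nor the spinal level of the ganglia.

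The sarcomere, the contractile unit of striated muscle, slides myosin thick filaments along actin thin filaments, and calcium released from the sarcoplasmic reticulum starts the movement through troponin and tropomyosin on the thin filament. Fast and slow muscle fibres build the same structure from different isoforms, each encoded by its own gene. A ganglion holds neurons, glia, fibroblasts, vessels and immune cells but no skeletal muscle fibres, whereas muscle lies against the vertebral column that encloses it.

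Sequencing depth was 9333882 counts for the control library and 14376228 for the AEW library. The labels name neurons as the cell type, and neuronal markers were abundant in both libraries. Of 18 such markers, 10 were called higher and none lower in the AEW library (median log2 ratio 0.72). Markers of other cell types were present as well. Calls follow the rule given below, by which 14.9% of all measured genes were lower and 17.3% were higher. Markers of fibroblasts were lower in 7 of 14 (median -0.67), of macrophages in 13 of 14 (-1.38) and of red blood cells in 8 of 11 (-0.74), none of these lists had a member called higher, and keratinocyte markers were higher in 13 of 13 measured, with 250 and 13835 summed counts, 33.8-fold higher (29.8 to 38.5). In bulk tissue, fewer cells of a type and less RNA per cell cannot be told apart.

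Muscle genes were mostly lower in the AEW library. Together they took 0.335% of control counts (95% exact binomial interval 0.332 to 0.339) and 0.182% of AEW counts (0.180 to 0.184), which is 1.96-fold lower in summed scaled counts (1.92 to 1.99). Genes with a summed count of 20 or more counted as measured. A gene counted as higher or lower when the ratio of scaled counts was at least 1.5-fold and its 95% counting interval excluded 1. Of 35 measured members, 21 were lower, 1 was higher and 13 were neither, and the median log2 ratio was -0.84. By the same rule 14.9% of all 14854 measured genes were lower and 17.3% were higher, with a median of 0.03. Myh7 and Myl2, both genes of slow fibres, had too few counts to be measured. Without 5 members that other cell types are known to express (Tpm1, Tpm2, Des, Fbxo32 and Actn2), 20 of 30 were lower and none was higher. Tnnt1, which other cells can also express, stayed among the 30 and in the slow-fibre list used below.

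The plot of levels by role sets both libraries side by side for every member. Levels are scaled counts per 10 to the power of 6 (CPM), and they are compared between libraries for a gene and not between genes, because counts were not divided by transcript length.

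**Figure D1:**
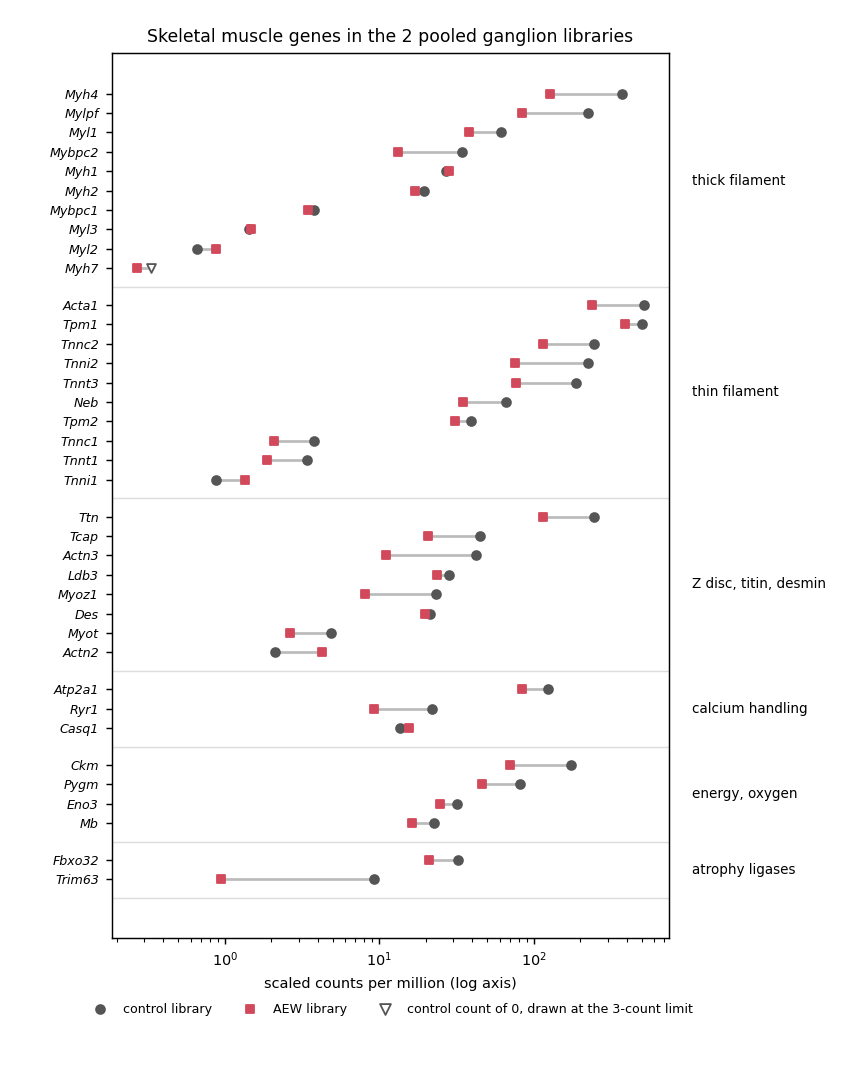
Scaled CPM of all 37 muscle genes (log axis), grouped by role, with 1 circle for the control library and 1 square for the AEW library, and a triangle where the control count was 0 (Myh7), drawn at the limit a count of 0 allows. Trim63 has the widest gap, from 9.28 to 0.945 CPM, while Myh1, Myl3 and Des have nearly equal levels in both libraries.

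Among thick filament genes the fast myosin heavy chains parted from one another. The genes of the fast chains lie next to each other on chromosome 11 (mm10), in the order Myh2 at 67171027 to 67197517, Myh1 at 67200052 to 67224575 and Myh4 at 67238029 to 67260446, all on the plus strand. Their RefSeq promoters, from 250 bases before to 50 bases after the start site, are shown because these neighbours differed in the data, with capitals marking a TATA box, an E-box, a MEF2 match, a CArG box or an M-CAT element.
Myh4, chr11:67237562-67237861 (GRCm38.p6, plus strand): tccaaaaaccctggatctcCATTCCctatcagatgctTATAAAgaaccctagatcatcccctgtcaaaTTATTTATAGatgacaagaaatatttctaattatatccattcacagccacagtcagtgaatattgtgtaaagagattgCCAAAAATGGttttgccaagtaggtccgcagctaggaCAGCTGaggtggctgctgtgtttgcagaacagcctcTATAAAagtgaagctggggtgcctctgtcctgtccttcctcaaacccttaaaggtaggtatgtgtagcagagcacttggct
Myh1, chr11:67199852-67200151 (GRCm38.p6, plus strand): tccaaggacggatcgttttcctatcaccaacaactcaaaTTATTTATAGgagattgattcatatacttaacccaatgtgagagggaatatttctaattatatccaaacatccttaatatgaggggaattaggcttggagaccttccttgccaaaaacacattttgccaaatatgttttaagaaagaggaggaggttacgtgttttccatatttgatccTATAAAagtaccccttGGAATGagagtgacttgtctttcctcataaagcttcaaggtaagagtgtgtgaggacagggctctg
Myh2, chr11:67170777-67171076 (GRCm38.p6, plus strand): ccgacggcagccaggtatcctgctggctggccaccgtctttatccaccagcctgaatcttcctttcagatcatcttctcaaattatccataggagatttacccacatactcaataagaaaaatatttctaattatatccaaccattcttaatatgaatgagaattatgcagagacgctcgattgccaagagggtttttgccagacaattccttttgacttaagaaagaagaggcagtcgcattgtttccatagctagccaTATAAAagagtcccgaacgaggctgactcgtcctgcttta

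The Myh4 window held 2 TATA boxes, 1 E-box, 1 MEF2 match, 1 CArG box and 1 M-CAT element. That of Myh1 held 1 TATA box, 1 MEF2 match and 1 M-CAT element, and that of Myh2 held 1 TATA box only. These are matches of letters in the window and not measured binding.

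Myh4, the heavy chain of the fastest fibres (type 2B), had 374.4 CPM in the control library (3390 counts) and 126.9 CPM in the AEW library (1881 counts), and was 2.95-fold lower (2.79 to 3.12). Myh1, the heavy chain of type 2X fibres, had 26.8 and 28.4 CPM, a ratio of 1.06 (0.902 to 1.24). Myh2, the heavy chain of type 2A fibres, had 19.3 and 16.9 CPM, a ratio of 0.876 (0.720 to 1.07). Only Myh4 of these neighbours was called lower, except when scaled on the neuronal markers, which lowers every log2 ratio by 0.72 and puts 54.8% of all measured genes in the lower class. On that scale Myh1 was at -0.64 and Myh2 at -0.91, and both were called lower with that shift. Counts of Myh4 per count of Myh1 went from 14.0 in the control to 4.47 in the AEW library, 3.12-fold lower (2.63 to 3.71), a quantity that needs no library scaling. Per count of Myh2 the change was 2.58-fold lower (2.10 to 3.18), and Myh1 per Myh2 had a ratio of 1.21 (0.934 to 1.56). These pairs within the fast myosins were chosen after their values were seen.

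Myh7, the slow heavy chain, had 0 counts in the control library, which allows up to 0.331 CPM, and 4 counts in the AEW library (0.270 CPM), so no fold is given. Of the counts of the 4 heavy chain genes, whose longest transcripts have similar lengths (6016 to 6230 bases), Myh4 took 89.0% in the control (88.0 to 90.0) and 73.6% in the AEW library (71.8 to 75.3). Myh1 took 6.38% (5.63 to 7.20) and 16.5% (15.05 to 18.0), and Myh2 took 4.60% (3.95 to 5.31) and 9.82% (8.69 to 11.0). The sources used here do not say how reads with several matches were counted. Stretches of 50 bases in the last 500 bases of the longest transcript were compared between genes. Of these, 7.54% for Myh4, 16.0% each for Myh1 and Myh2 and 51.0% for Myh7 also occurred in a transcript of another gene. Reads there could thus be counted under that other gene. Over the whole Myh7 transcript, 22.2% of stretches were shared with Myh6, another heavy chain gene. Myh6 had 3 counts in controls and 0 after AEW. Whether read assignment has a part in the 0 and 4 counts of Myh7 was not tested.

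**Figure D2:**
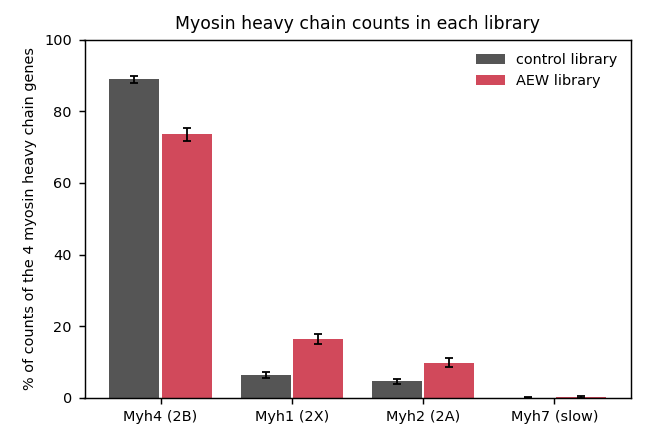
Percent of the summed counts of 4 myosin heavy chain genes that each gene took in the control library (grey) and the AEW library (red), with exact binomial 95% intervals. Myh4 went from 89.0% to 73.6%, and Myh1 and Myh2 took larger shares in the AEW library.

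Myosin light chains of fast fibres were lower. Mylpf, the fast regulatory light chain, had 222.6 CPM in controls and 84.0 CPM in the AEW library, 2.65-fold lower (2.47 to 2.85). Myl1, the fast essential light chain, had 61.4 and 38.3 CPM and was 1.60-fold lower (1.42 to 1.80), a smaller difference. Its interval, which covers counting error only, does not overlap that of Mylpf. A pseudogene, Mylf-ps, shares 23.4% of the 50-base stretches of the Myl1 transcript. The slow counterparts were near the limit of detection. Myl3 had 13 counts in controls and 22 after AEW, a ratio of 1.03 (0.498 to 2.23), and Myl2 had 6 and 13 counts, a ratio of 1.32 (0.469 to 4.25). Myosin-binding protein C braces the thick filament. Its fast form Mybpc2 had 34.1 and 13.2 CPM, 2.59-fold lower (2.16 to 3.12), and its slow form Mybpc1 had 3.76 and 3.44 CPM, a ratio of 0.916 (0.582 to 1.46).

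Thin filament genes were lower in 7 of 10, with none higher. Acta1, skeletal muscle actin (chromosome 8, 123891769 to 123894751, minus strand), had 515.2 CPM in controls (4665 counts) and 237.6 CPM after AEW (3522 counts), 2.17-fold lower (2.07 to 2.27). Troponin, the calcium switch of the thin filament, has an inhibitory, a tropomyosin-binding and a calcium-binding subunit. The fast inhibitory subunit Tnni2 had 224.1 and 75.9 CPM, 2.95-fold lower (2.74 to 3.18). The fast tropomyosin-binding subunit Tnnt3, which lies near Tnni2 on chromosome 7, had 188.5 and 76.7 CPM, 2.46-fold lower (2.28 to 2.65). The fast calcium-binding subunit Tnnc2 had 246.2 and 115.0 CPM, 2.14-fold lower (2.01 to 2.28). The ratios of these subunits of one complex thus differed between the libraries. The intervals of Tnni2 and Tnnc2, which cover counting error only, do not overlap.

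Slow troponin genes had between 8 and 34 counts in each library and wide intervals. Tnni1 had 8 counts in controls and 20 after AEW, a ratio of 1.53 (0.644 to 4.01) that was not called. Tnnt1 had 31 and 28 counts, 1.81-fold lower (1.05 to 3.14), and Tnnc1 had 34 and 31 counts, 1.80-fold lower (1.07 to 3.02). Thinning the AEW library to the control total, in 50 random draws added after seeing the data, lost the call of Tnnt1 in 29 draws and that of Tnnc1 in 20, and Tnnt1 was not called under total count scaling. Nebulin (Neb), a ruler along the thin filament, had 65.6 and 34.6 CPM, 1.90-fold lower (1.68 to 2.14). The tropomyosins Tpm1 and Tpm2, which smooth muscle and other cells also express, were not called, with 503.0 and 386.1 CPM for Tpm1, a ratio of 0.768 (0.738 to 0.798), and 39.4 and 31.0 CPM for Tpm2, a ratio of 0.785 (0.683 to 0.905).

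At the Z disc, which anchors the thin filaments, 5 of 8 members were lower and 1 was higher, counting titin and desmin. Actn3, the alpha-actinin of fast fibres, had 42.0 CPM in controls and 11.0 CPM after AEW and was 3.82-fold lower (3.17 to 4.61). Myoz1, a calcineurin-binding Z disc protein of fast fibres, had 23.2 and 8.10 CPM, 2.86-fold lower (2.28 to 3.62). Titin (Ttn), the elastic filament, had 245.6 and 115.1 CPM, 2.13-fold lower (2.003 to 2.27), and its Z disc partner Tcap had 44.8 and 20.5 CPM, 2.19-fold lower (1.88 to 2.54). Myot, an actin-bundling Z disc protein, was 1.85-fold lower (1.17 to 2.92) at 44 and 39 counts, a call lost in 7 of the 50 thinning draws.

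Actn2, the other alpha-actinin of muscle, was the only measured member called higher. It had 2.10 CPM in the control (19 counts) and 4.25 CPM in the AEW library (63 counts), 2.03-fold higher (1.20 to 3.58). Its call was lost in 8 of the 50 thinning draws. The shift of -0.72 in every gene under neuronal marker scaling put it at a log2 ratio of 0.30, which was not called. Des, the intermediate filament of all muscle types, had 21.3 and 19.8 CPM, a ratio of 0.931 (0.773 to 1.12). Ldb3, a PDZ and LIM domain protein of the Z disc, had 28.1 and 23.6 CPM, a ratio of 0.842 (0.714 to 0.993). Neither was called.

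Genes of calcium handling did not move together. Ryr1, the calcium release channel, had 22.0 CPM in controls and 9.24 CPM in the AEW library, 2.38-fold lower (1.90 to 2.98). Atp2a1, the calcium pump of fast fibres, had 122.6 and 83.5 CPM, a ratio of 0.681 (0.628 to 0.740) just short of the fold limit. Casq1, which buffers calcium in fast fibres, had 13.6 and 15.5 CPM, a ratio of 1.14 (0.914 to 1.43), which lay at -0.53 on the log2 scale with neuronal marker scaling and was not called there either. The intervals of these genes, which cover counting error only, do not overlap.

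Of the genes of energy and oxygen supply, both Ckm and Pygm were lower. Ckm, the muscle creatine kinase, had 175.1 and 70.0 CPM, 2.50-fold lower (2.31 to 2.71), and Pygm, the muscle glycogen phosphorylase, had 81.5 and 45.9 CPM, 1.78-fold lower (1.60 to 1.97). Eno3, the muscle enolase, had 31.8 and 24.6 CPM, a ratio of 0.774 (0.662 to 0.907). Myoglobin (Mb), the oxygen store of oxidative fibres, had 22.8 and 16.3 CPM, a ratio of 0.715 (0.591 to 0.865). Neither of the latter was called.

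The ubiquitin ligases of muscle atrophy had unequal ratios. Trim63, known as MuRF1, marks sarcomere proteins for breakdown (chromosome 4, 134315120 to 134329629, plus strand). It had 9.28 CPM in controls (84 counts) and 0.945 CPM after AEW (14 counts), 9.82-fold lower (5.54 to 18.7), the largest fold among the measured members. Fbxo32, known as atrogin-1, had 32.1 and 21.1 CPM and was 1.53-fold lower (1.30 to 1.80), a call lost in 8 of the 50 thinning draws and under total count scaling. Counts of Trim63 per count of Fbxo32 were 6.42-fold lower in the AEW library (3.52 to 12.5), and those per count of Acta1 were 4.53-fold lower (2.55 to 8.65). Both comparisons were chosen after the values were seen. The Trim63 promoter is shown because this gene had the largest fold, with 1 TATA box, 1 E-box and 1 M-CAT element in capitals.
Trim63, chr4:134314870-134315169 (GRCm38.p6, plus strand): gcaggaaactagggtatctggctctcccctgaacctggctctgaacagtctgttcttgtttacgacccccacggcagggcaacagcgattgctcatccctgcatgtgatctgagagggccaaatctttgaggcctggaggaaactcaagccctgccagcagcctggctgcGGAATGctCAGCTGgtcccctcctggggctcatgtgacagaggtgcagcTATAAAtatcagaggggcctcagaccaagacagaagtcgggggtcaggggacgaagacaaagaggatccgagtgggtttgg

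**Figure D3:**
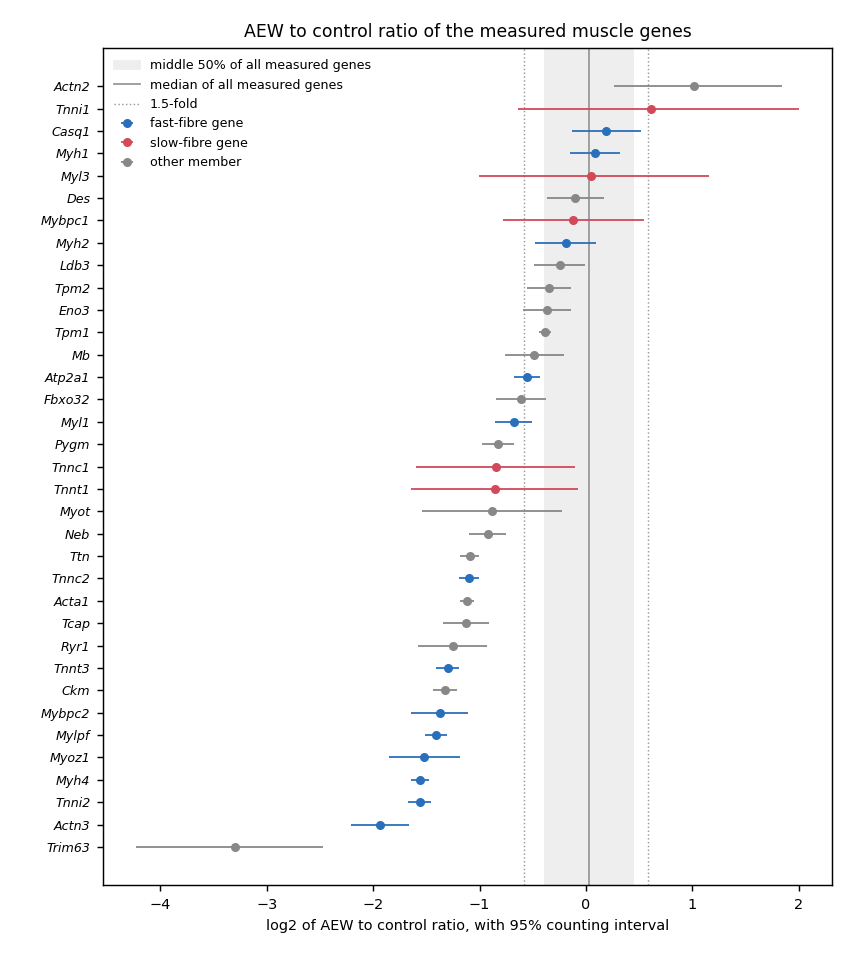
Log2 of the AEW to control ratio of scaled counts for the 35 measured muscle genes, sorted, with 95% counting intervals, coloured by fibre type, beside the middle 50% and the median (0.03) of all measured genes. Fast-fibre genes fill most of the lower end above Trim63, while Casq1, Myh1 and Myh2, also genes of fast fibres, lie near 0.

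Fast-fibre genes had a lower median than slow-fibre genes. Of 13 fast genes, 9 were lower, none was higher and 4 were neither (Myh1, Myh2, Atp2a1 and Casq1), and the median log2 ratio was -1.30. Of 7 slow genes 5 were measured, 2 of them lower and 3 neither, with a median of -0.13. Summed counts of the fast list were 14476 in controls and 10278 after AEW, and those of the slow list were 126 and 169. Slow genes thus took 0.863% of the counts of both lists in the control (0.719 to 1.03) and 1.62% in the AEW library (1.38 to 1.88). Fast counts per slow count were 114.9 and 60.8, 1.89-fold lower in the AEW library (1.49 to 2.40). In summed scaled counts the fast list was 2.31-fold lower (2.25 to 2.36) and the slow list 1.22-fold lower, with an interval from 0.961 to 1.55 that holds 1.

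Fast and slow genes were also matched by protein. Of 9 pairs of a fast and a slow gene, 3 involve Myh7 and gave no ratio. In the other 6, the fast to slow count ratio was lower in the AEW library, and the interval excluded 1 in 3 of them. Tnni2 per Tnni1 was 4.51-fold lower (1.89 to 11.9), Mylpf per Myl2 3.51-fold (1.24 to 11.3) and Mybpc2 per Mybpc1 2.37-fold (1.45 to 3.92). In the other 3 pairs the interval held 1. The AEW over control ratio was 0.604 (0.277 to 1.27) for Myl1 per Myl3, 0.737 (0.425 to 1.28) for Tnnt3 per Tnnt1 and 0.839 (0.498 to 1.42) for Tnnc2 per Tnnc1. The low counts of the slow genes limit these pairs. Actn3 was also set against Actn2, which is not a slow-fibre gene, and Actn3 per Actn2 was 7.70-fold lower (4.38 to 14.1). Neurons also express Actn2, and neuronal markers were higher in the same library, whose part in that ratio was not tested.

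**Figure D4:**
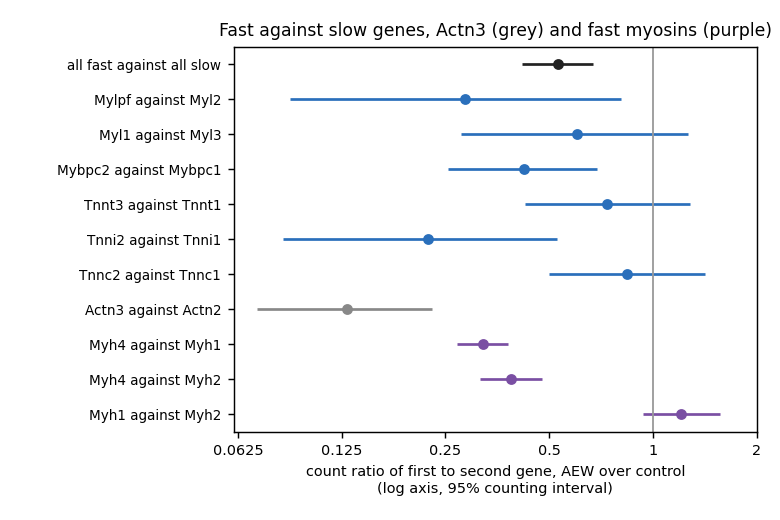
Ratio of the counts of the first gene to those of the second, AEW library over control library, on a log axis with 95% counting intervals, for all fast against all slow genes (black), matched isoforms (blue), Actn3 against Actn2 (grey) and fast myosins against each other (purple). All but Myh1 against Myh2 lie below 1, and the intervals of Myl1, Tnnt3 and Tnnc2 against their slow counterparts cross it.

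Ratios within the library show how far the members departed from a single shared fold, in a comparison chosen after the values were seen. Relative to Acta1, 8 members were lower by their interval in the AEW library, 18 were higher and 8 had an interval that held 1. Those below were Myh4, Mylpf, Tnnt3, Tnni2, Actn3, Myoz1, Ckm and Trim63, and the fast list split into 6 below, 5 above (Myh1, Myh2, Myl1, Atp2a1 and Casq1) and 2 whose interval held 1 (Mybpc2 and Tnnc2). Ttn at 1.02 (0.940 to 1.10), Tnnc2 at 1.01 (0.938 to 1.09) and Tcap at 0.992 (0.846 to 1.16) followed Acta1 closely. Myh1 at 2.29 (1.94 to 2.71), Casq1 at 2.48 (1.97 to 3.12) and Atp2a1 at 1.48 (1.35 to 1.62) lay above it.

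Other genes of the muscle fibre came from lists that hold no member, and their difference from the members was not tested. Of 23 other sarcomere genes measured, 9 were lower and 1 was higher, with a median log2 ratio of -0.43. Among all measured genes 14.9% were lower. Ankrd23, a titin-associated ankyrin repeat protein, was 3.44-fold lower (2.75 to 4.33) and Xirp2, an actin-binding protein, 2.23-fold lower (1.91 to 2.60). The higher one was Csrp3, a LIM domain protein of slow and cardiac muscle, with 1 count in controls and 22 after AEW, a ratio of 13.4 (2.17 to 555). Of 17 genes of the triad and of membrane excitation, 6 were lower and 3 higher (median -0.34), the share higher being near the 17.3% of all measured genes. Trdn, which holds the calcium release complex together, was 3.61-fold lower (3.07 to 4.26) and Mrln, a peptide inhibitor of the calcium pump, 3.90-fold lower (2.30 to 6.83). Cacnb1, a calcium channel subunit, was 2.27-fold higher (1.93 to 2.69) and Kcnj12, a potassium channel, 2.16-fold higher (1.85 to 2.53). They had 184 and 685 counts and 208 and 736 counts, and whether these came from muscle fibres or from other cells was not tested.

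Of 18 genes of muscle metabolism, 5 were lower and 1 was higher (median -0.12), beside 14.9% lower and 17.3% higher among all measured genes. Cox8b and Cox6a2, muscle forms of respiratory chain subunits that brown fat can also express, were 3.30-fold (2.48 to 4.42) and 2.84-fold (2.41 to 3.36) lower. Pfkm, a phosphofructokinase that other tissues share, was 1.77-fold higher (1.59 to 1.98). Of 7 genes of the muscle membrane and the motor endplate, none was lower and 2 were higher, namely Dysf at 2.34-fold (2.07 to 2.65) and Musk at 2.44-fold (1.10 to 6.14, from 8 and 32 counts). How much of the counts of both lists came from cells other than muscle fibres was not tested. Chrnd and Chrng, subunits of the muscle acetylcholine receptor, had 0 counts in both libraries. Other subunits were present, with 51 counts in controls and 67 after AEW for Chrna1 and 27 and 28 for Chrnb1, neither of them called. Chrne had 0 and 4 counts.

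Of the markers of muscle stem cells and of myogenic differentiation, 8 had a row and 3 were measured, 1 of them lower, 1 higher and 1 neither. Cdh15, a cadherin of myogenic cells, was 1.60-fold higher (1.08 to 2.41) at 36 and 94 counts. Chodl, a membrane lectin, was 1.82-fold lower (1.24 to 2.69) at 59 and 53 counts, and Itga7, an integrin subunit that other cells share, had 611 and 1121 counts and a ratio of 1.12 (1.01 to 1.24). Pax7, the marker of satellite cells, had 0 counts in both libraries, which allows up to 0.331 CPM in controls and 0.202 CPM in the AEW library. Myod1 had 3 and 2 counts, Myog 3 and 1 and Myf6 4 and 2. The fetal heavy chains Myh3, with 7 and 19 counts, and Myh8, with 19 and 20, were not called. Of 14 smooth muscle genes, 3 were lower and 1 was higher (median -0.43), beside 14.9% lower and 17.3% higher among all measured genes. Acta2, smooth muscle actin, was 2.26-fold lower (2.06 to 2.49), and Pln, an inhibitor of the calcium pump, 1.83-fold higher (1.30 to 2.62). Pln is also among the higher genes of the triad and excitation list.

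Of 22 other measured genes linked to muscle wasting, 4 were lower, 3 higher and 15 neither, shares near the 14.9% lower and 17.3% higher of all measured genes, and their median log2 ratio was 0.02. Fbxo30, a ubiquitin ligase, was 2.10-fold lower (1.72 to 2.55) and Igfbp5, an insulin-like growth factor binding protein, 1.94-fold lower (1.86 to 2.02). Fbxo31 was 1.92-fold higher (1.71 to 2.16) and Ube4b 1.79-fold higher (1.64 to 1.95), both ubiquitin ligases. Glucocorticoid hormones are known to raise Trim63 in muscle. Of 14 genes of the glucocorticoid response, 6 were lower and none higher (median -0.54), with the clock gene Per1 1.95-fold lower (1.66 to 2.30) and the sulfotransferase Sult1a1 1.79-fold lower (1.64 to 1.96). Whether either programme has a part in the Trim63 difference was not tested.

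**Figure D5:**
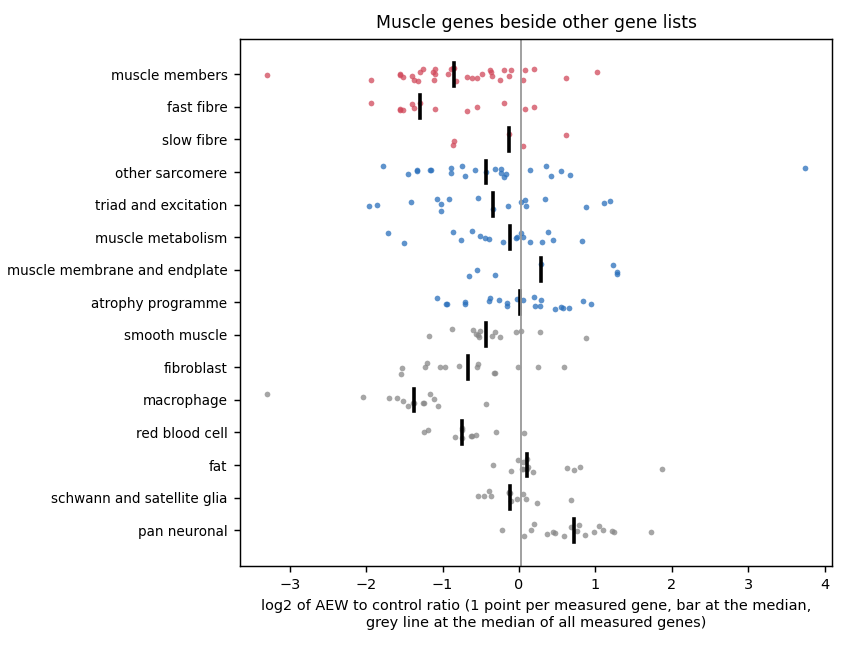
Log2 of the AEW to control ratio for the measured genes of each list, 1 point per gene, with a bar at each list's median and a grey line at the median of all measured genes. The muscle members (median -0.84) and fast-fibre genes (-1.30) lie left of the line, as do macrophage (-1.38), red blood cell (-0.74) and fibroblast (-0.67) markers, and neuronal markers (0.72) lie right of it.

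The lower muscle counts moved with lower counts of fibroblast, macrophage and red blood cell markers and with higher counts of neuronal and keratinocyte markers. Fat markers were not lower, with 4 of 14 higher and a median log2 ratio of 0.10. Markers of Schwann cells and satellite glia had 1 of 13 higher and none lower (median -0.12). Among all measured genes 14.9% were lower and 17.3% were higher. The part of muscle tissue taken along with the ganglia was not tested, and the sources used here do not describe the dissection.

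The members lie on 14 chromosomes. RefSeq promoter windows matched 29 of the 37, with 35 windows. The E-box CAGCTG, searched on both strands as a palindrome, occurred in 16 of the 29 and in 16.3% of all 32851 windows. The M-CAT element CATTCC, on both strands, occurred in 12 of the 29 and in 14.7% of all windows. The letters of a TATA box (TATAAA, on the strand of the gene, anywhere in the window) occurred in 6 and in 8.32% of all windows. The 6 were Acta1, Myh1, Myh2, Myh4, Tnnt1 and Trim63. The CArG box, bound by serum response factor, occurred in 4 and in 1.63% of all windows, and the MEF2 motif in 3 (Myh1, Myh4 and Ttn) and in 3.19%. Of 9 fast genes with a window 5 held an E-box, and of 7 slow genes 3 did. Members with more than 1 window have more sequence to hold a match, and no test was made of these counts.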

How the data were processed

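The deposited files, 1 per library, give raw counts of reads for each gene symbol, as their whole-number values show. Per the labels' protocols, each Lexogen QuantSeq library was built from 500 ng of Trizol-extracted total RNA. Bowtie2, bedtools and mm10 stand in the submitters' processing notes. The sources used here give no tool versions, annotation or use of strand. TMM factors came from edgeR 4.0.16 (R 4.3.3) over all 23282 rows. A total of 35 symbols that occurred more than once stayed in the totals and out of calls. CPM, ratios and exact intervals (Clopper-Pearson, conditional binomial, or conditional odds ratio for count ratios between genes) were computed with SciPy 1.17.1. With 1 library per group no p-value was computed. Intervals, and the 3 counts that a count of 0 allows, cover counting error only, and reads without molecular identifiers are not independent molecules.

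All 37 members may be named. Of each other list, up to 2 genes with the highest lower bounds and 2 with the lowest upper bounds are named, plus defining markers near 0. Myod1, Myog, Myf6, Chrna1, Chrne and Myh6 were chosen after their values were seen. Members and lists were chosen with earlier results of these data known. Locations and transcripts come from GENCODE M21 on mm10 and promoters from RefSeq GRCm38.p6. Calls were also tested on simulated data with known changes. Alternatives used DESeq2 1.42.0 size factors, total count and upper quartile scaling, other filters, thinning, a stricter interval, other totals, neuronal marker scaling and other list members, and repeated thinning was added after seeing the data.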

Additional observations from a re-analysis of the deposited data

How the results depend on the processing

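Of 98 recomputed summary values, at least 30 could not move, since ratios of raw counts do not depend on scaling, filters or call rules and medians do not depend on the call rule. Of the other 68, 52 stayed within their error or within 1.5 times the main count. Some of these could not move either, such as the control fast share when only the AEW library was thinned and the fast median without Tnnt1. The number of members lower was 21 under the settings of the report, 16 with an interval that excludes 1.5-fold, 17 with a summed count of at least 100, 19 with total count scaling, and 18 to 22 over 50 thinning draws, which were added after seeing the data. It was 31 when scaled on the neuronal markers, a scaling that shifts every log2 ratio by -0.72 and calls 54.8% of all measured genes lower. It put the median of the members at -1.57 and that of fast genes at -2.02. The single higher member, Actn2, was not called with an interval that excludes 1.5-fold or on the neuronal scale, which left 0 higher. The number higher was also 0 with a summed count of at least 100 and without 5 members known outside skeletal muscle. These last settings drop Actn2, which has 82 summed counts, so the loss there was fixed in advance. Without Tnnt1, fast genes took 99.3% of the counts of both lists in controls and 98.6% after AEW. With myosin chains only they took 99.7% and 99.1%, the fast median was -0.68, and fast per slow counts had an AEW over control ratio of 0.333. The share of muscle genes was 0.370% in controls and 0.195% after AEW without red blood cell and ribosomal protein rows in the totals. Without the same 5 members it was 0.277% and 0.135%. No slow gene had a summed count of at least 100, so that setting gave no slow median. Depth limits the slow genes most. No paired analysis was possible because each group has 1 library, and for the same reason no replicate could be left out.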
